A study of Mus musculus with 24 samples.

Results

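The genes of homologous recombination and of the Fanconi anemia pathway were followed in mouse embryonic fibroblasts (MEFs) with and without the kinase LKB1 and the coactivator CRTC2. The set holds 36 genes, named by their function and matched to the count tables by Ensembl identifier, of 55471 genes counted. All 36 passed the filter on low counts, as did 17522 genes in all. RNA-seq covered 24 libraries in 8 groups of 3: 3T3 MEFs that were wild type (WT), LKB1 knockout (Lkb1-/-, encoded by Stk11), or LKB1/CRTC2 knockout (Lkb1-/-/Crtc2-/-, clones A1 and A2), each as untreated control or with IL-1β. The Crtc2 deletion was made by CRISPR with guides to the first exon in Lkb1-/- cells, so both clones carry the Lkb1 deletion too, and each clone descends from 1 cell. IL-1β was given for 6 h, at 0.1 ng/mL in the study's methods. The WT and Lkb1-/- MEFs are separate immortalized lines, 1 line per genotype, so that genotype and line cannot be told apart. Nothing in the labels says that libraries with different replicate numbers came from separate lines, so p-values measure the spread between cultures or preparations of 1 line.

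Homologous recombination rebuilds a broken chromosome from an intact sister copy. The MRE11-RAD50-NBN complex finds the ends and, with CtIP (Rbbp8) and EXO1, trims them to single strands; BRCA1 with BARD1 and PALB2 brings in BRCA2, and the complexes of Rad51b, Rad51c, Rad51d, Xrcc2 and Xrcc3 help the strand find its intact copy. The Fanconi core complex marks FANCD2 and FANCI with ubiquitin when a crosslink stalls a replication fork, and the kinases ATM, ATR, CHEK1 and CHEK2 signal the damage to the cell cycle. In growing cells most of these genes are transcribed in S phase under the E2F factors, and LKB1 restrains CRTC2, a coactivator of CREB, through the SIK kinases.

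Each library held 38842901 to 48594394 read pairs counted on genes. Reads on no gene made up 33.1% to 34.4% in replicate 1 of untreated A2 and of IL-1β-treated Lkb1-/-, A1 and A2, against 26.7% to 31% in the other 20 libraries. These 4 libraries had the lowest summed CPM of the 36 repair genes in their groups, as 1509 against 1624 and 1631 in treated Lkb1-/-, and 1678 against 1792 and 1828 in untreated A2. Without replicate 1 of treated Lkb1-/-, 21 repair genes in place of 22 were called between treated Lkb1-/- and WT, and without replicate 1 of untreated A2, 14 in place of 16 between untreated A2 and Lkb1-/-. Without replicate 1 of treated A1 or of treated A2, 16 in place of 17 were called between that clone and Lkb1-/- under IL-1β. Stk11, counted over the whole gene and not only its deleted part, averaged 86 CPM (counts scaled to library size) in untreated WT and 17.3 to 21.4 in the 3 untreated Lkb1-null lines, and Crtc2 fell from 81.1 in Lkb1-/- to 42.9 in A1 and 49.8 in A2. The 11 fibroblast markers summed to between 6183 and 9936 CPM in the untreated libraries, with Col1a1, Vim and Fn1 high in every group, whereas Thy1 and Lum were at or near 0 everywhere. The lines differed among these markers: Pdgfra averaged 4.58 CPM in untreated WT and 342 in Lkb1-/-, Dcn 0.411 and 218, and Col1a2 780.1 and 63. The sums of 5 epithelial markers did not pass 0.447 CPM, those of 4 endothelial markers 3.85 CPM and those of 5 macrophage and leukocyte markers 8.96 CPM in any library. Among the untreated groups the endothelial and macrophage sums were lowest in WT, at 0.424 to 0.678 and 2.44 to 4 CPM, and were 2.45 to 2.85 and 4.33 to 5.93 in Lkb1-/-.

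RefSeq promoter windows of GRCm38.p6, from 250 bases before to 50 bases after the start of transcription, were matched by symbol for 27 of the 36 genes, in 30 windows. A core E2F site, spelled TTTCCCGC, TTTCGCGC, TTTGGCGC or TTTGCCGC on either strand, stood in 6 of the 30 windows (20%), those of Bard1, Brca2, Chek2, Fancg and both of Rad51c, against 2.26% of all 32851 windows. The palindrome TGACGTCA, the full cAMP response element bound by CREB, stood in the windows of Brca2 and Rad51c, 2 of 30 (6.67%) against 1.79% of all. CCAAT on either strand, the NF-Y box of many cell cycle genes, was in 18 of 30 (60%) against 37.4%, while TATAAA was in 3 of 30 (10%) against 13.6%. The CHR, another word of cell cycle promoters, spelled TTTGAA or TTCGAA, was in 4 of 30 (13.3%) against 19.2%. The windows held a median of 22 CpG dinucleotides, against 7 in all windows, and such counts describe letters, not binding. Each E2F word and the CREB word contain CG, and the windows compared were not matched for CpG. The 4 windows below belong to genes whose levels carry the comparisons: Fancg, the gene that differed most between Lkb1-/- and WT, Brca2 and Rad51c, which hold both the E2F and the CREB words, and Brca1, whose window also holds the start of the neighboring gene Nbr1 on the other strand, 194 bases away. Capitals mark the E2F and CREB words in the first 3 and CCAAT in Brca1, and each is read 5′ to 3′ on the strand of its gene (Fancg at chr4:43010252-43010551, minus strand; Brca2 at chr5:150522371-150522670, plus strand; Rad51c at chr11:87404457-87404756, minus strand; Brca1 at chr11:101551906-101552205, minus strand).
Fancg: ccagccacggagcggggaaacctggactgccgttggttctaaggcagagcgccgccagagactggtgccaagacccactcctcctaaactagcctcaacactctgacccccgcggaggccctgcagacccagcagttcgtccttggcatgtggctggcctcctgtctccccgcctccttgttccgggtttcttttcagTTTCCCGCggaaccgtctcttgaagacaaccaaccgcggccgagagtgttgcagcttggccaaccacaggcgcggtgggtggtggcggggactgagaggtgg
Brca2: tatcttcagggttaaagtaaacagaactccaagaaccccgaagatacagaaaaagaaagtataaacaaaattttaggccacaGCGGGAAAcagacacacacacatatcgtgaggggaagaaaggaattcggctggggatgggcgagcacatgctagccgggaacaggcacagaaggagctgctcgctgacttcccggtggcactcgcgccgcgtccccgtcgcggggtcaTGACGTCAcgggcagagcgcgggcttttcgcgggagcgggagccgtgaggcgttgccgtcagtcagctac
Rad51c: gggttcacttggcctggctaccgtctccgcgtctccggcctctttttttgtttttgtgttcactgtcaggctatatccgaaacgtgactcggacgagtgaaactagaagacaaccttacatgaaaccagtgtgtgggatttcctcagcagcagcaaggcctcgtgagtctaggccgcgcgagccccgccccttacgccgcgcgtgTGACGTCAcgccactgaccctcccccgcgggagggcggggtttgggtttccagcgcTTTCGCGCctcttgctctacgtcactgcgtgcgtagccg
Brca1: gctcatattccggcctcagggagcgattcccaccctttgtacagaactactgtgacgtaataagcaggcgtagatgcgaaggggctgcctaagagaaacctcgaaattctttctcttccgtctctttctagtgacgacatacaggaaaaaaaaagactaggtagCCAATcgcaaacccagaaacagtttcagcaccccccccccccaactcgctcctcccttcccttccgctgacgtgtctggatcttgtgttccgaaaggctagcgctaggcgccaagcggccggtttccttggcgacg

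In Fancg the E2F word begins 52 bases before the start. In Brca2 it begins 168 bases before the start on the minus strand and the CREB word 20 bases before it. In Rad51c the CREB word begins 45 bases before the start and the E2F word 12 bases after it. A second Rad51c window, from another annotated start, holds an E2F word alone.

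Divergent starts were common among the repair genes. For 10 of 36 (27.8%) the start of a protein-coding gene on the other strand lay within 1000 bases, against 1588 of 21951 protein-coding genes (7.23%). The closest pairs were Fancd2 with Emc3 at 30 bases, Palb2 with Dctn5 at 56 bases and Rad51c with Tex14 at 111 bases.

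Per kilobase of exon, the sensors of broken ends were the most abundant of the 36 in untreated WT MEFs. Exon length was counted over all annotated exons of a gene, 2533 bases for Nbn and 23629 for Atr. The order therefore also follows annotated length, as these genes had 73.4 and 70.4 CPM. Nbn had 29 CPM per kb, Rad50 19.8 and Mre11a 15, followed by the helicase Blm at 12.7 and the kinase Chek1 at 12. Brca1 stood at 10.5 CPM per kb and its partner Bard1 at 11.4, while Brca2 stood at 4.44 and Palb2, which joins them, at 2.85. Fancg at 1.74, Fancc at 1.16 and Rad51b at 0.995 were the lowest 3. The 36 genes summed to a median of 1606 CPM in untreated WT, 1617 in Lkb1-/-, 1748 in A1 and 1792 in A2, and each clone's lowest library, at 1712 and 1678, lay above the highest of the other 2 lines, at 1624. Other repair lists rose too. Sums of 43 other pathway genes were 2733 to 2786 CPM in untreated Lkb1-/-, 2810 to 2949 in A1 and 2726 to 2931 in A2. Sums of 13 end-joining genes had medians of 877, 941 and 939. In RNA of whole cultures, a change in the share of cells in S phase and a change of RNA per cell cannot be told apart.

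Several of the 36 lie over genes on the opposite strand, and the strand setting separates them. Reads of the first strand setting made up 74.9% of all strand-assigned reads at Eme1, which overlaps Lrrc59, 51.8% at Rad54l, which overlaps Lrrc41, and 38.5% at Fancl, which overlaps Vrk2, against 0.178% at Brca1.

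Lkb1-/- and WT MEFs differed in individual repair genes in both directions, with the set as a whole close to the median of all genes. In untreated cells 22 of 36 genes were called between Lkb1-/- and WT (edgeR quasi-likelihood test, FDR under 0.05), 13 higher and 9 lower, while 55.9% of all genes tested were called, 30.1% higher and 25.8% lower. With upper quartile scaling the split of the 22 calls was 16 higher and 6 lower. The median log2 fold change of the 36 was 0.047, against 0.041 over all genes. Under IL-1β, where 57.4% of all genes were called, 22 were called again, 15 higher and 7 lower. The 13 genes higher without IL-1β were higher with it, and 7 of the 9 lower genes were lower with it, where 26.6% and 23.3% of all genes were called higher and lower in both. Both comparisons are in the plot of KO minus WT by role. Whole chromosomes differed between these lines too, with medians over all tested genes from -0.44 on chromosome 10 to 0.40 on chromosome 15. The libraries of the lines did not overlap for 24 of the 36 genes, and for 64.8% of all genes tested.

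**Figure D1:**
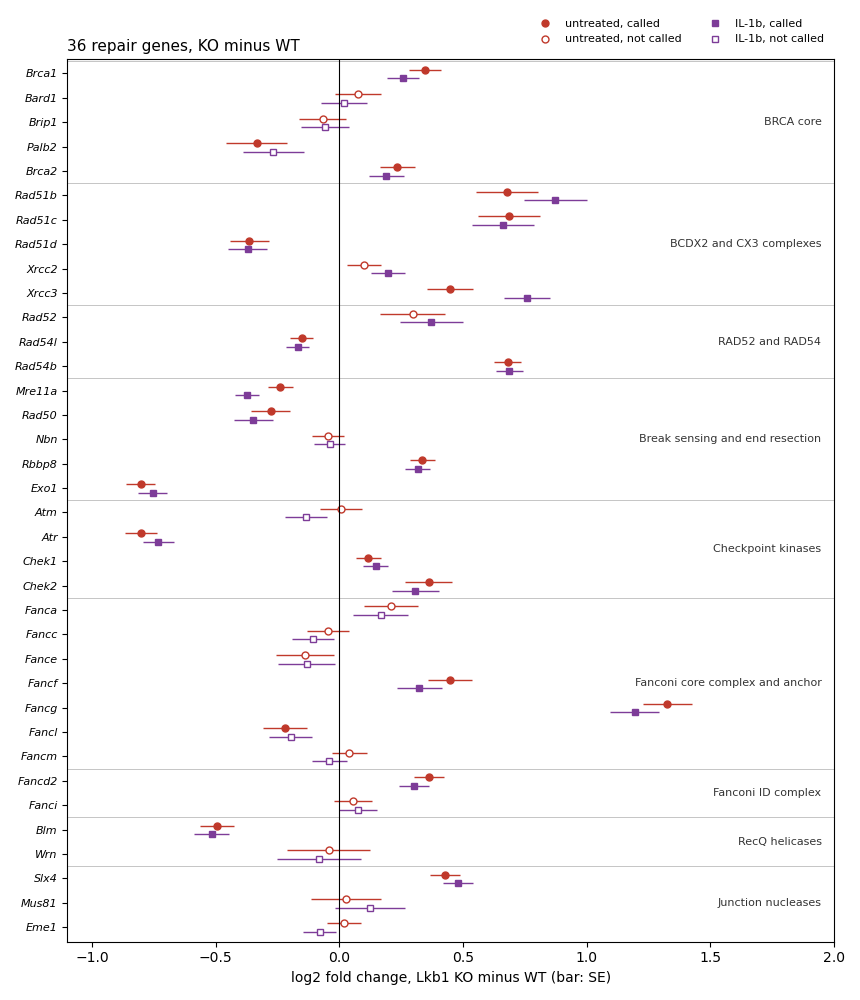
Log2 fold change of each of the 36 repair genes in Lkb1-/- minus WT MEFs (x axis, log2 of TMM-scaled counts), grouped by role on the y axis, with circles for untreated and squares for IL-1β-treated cells, filled where the FDR was under 0.05 and with bars for the SE. Fancg lies farthest to the right at 1.33 untreated, and Exo1 and Atr lie farthest to the left, at -0.80 and -0.80.

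Fancg, a scaffold of the Fanconi core complex (GRCm38, chr4:43002343-43010506, minus strand), rose the most. Its CPM was 6.12, 6.75 and 6.94 in the 3 untreated WT libraries and 16, 16.1 and 17.6 in Lkb1-/-. The difference on the log2 scale was 1.33 with an SE of 0.099 (FDR = 2.3e-10 in edgeR). Later pairs of this form give log2 fold change ± SE. Under IL-1β it was 1.19 ± 0.099. It stayed high in both clones, at 17.9 ± 0.851 CPM (SD, n = 3) in A1 and 20.6 ± 2.65 in A2. Fancf, the adaptor that holds the complex together, rose by less. Its CPM went from 13.6, 13.5 and 13.6 in WT to 17.3, 18.8 and 19.3 in Lkb1-/- (0.45 ± 0.091, edgeR FDR = 2.5e-04). Of the 7 core and anchor genes these were the 2 higher ones, where 30.1% of all genes were higher and 25.8% lower. Fancl, the ubiquitin ligase, was called lower at -0.22 ± 0.089 (edgeR FDR = 0.041), a call lost in 6 of 13 other settings, among them without replicate 1 of WT or replicate 2 of Lkb1-/-, with values from -0.31 to 0.053, the latter with unstranded counts. Fanca, Fancc, Fance and Fancm were not called, with log2 fold changes of 0.21, -0.046, -0.14 and 0.040. Fancd2, which the core complex ubiquitinates, rose from 39.7, 42.9 and 41.5 CPM in WT to 50.9, 55.6 and 53.2 in Lkb1-/- (0.36 ± 0.061, edgeR FDR = 2.7e-05), with a median of 0.22 on its chromosome 6, and within that chromosome's scaling it was at 0.14 and no longer called (edgeR FDR = 0.053), while its partner Fanci was at 0.054 and not called. Fancd2 was not called against Lkb1-/- in A1, with 50.9, 54.3 and 56.2 CPM, or in A2, with 54.5, 58 and 57.5.

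The 5 genes of the Rad51b, Rad51c, Rad51d, Xrcc2 and Xrcc3 complexes split, with 3 higher and 1 lower in Lkb1-/-. Over all genes tested, 30.1% were higher and 25.8% lower. Rad51b and Rad51c, which form a complex with each other and with Rad51d and Xrcc2, were higher without LKB1. Rad51c had 14.2, 17.5 and 18.3 CPM in untreated WT and 25.1, 25.3 and 29.9 in Lkb1-/- (0.69 ± 0.12, edgeR FDR = 7.6e-05), and Rad51b had 3.97, 3.02 and 4.23 and 6.59, 5.34 and 6.02 (0.68 ± 0.13, edgeR FDR = 9.2e-05). Both lie on chromosomes with medians below 0, -0.13 for chromosome 11 (Rad51c) and -0.12 for chromosome 12 (Rad51b). Rad51d moved the other way, from 15.2, 14.1 and 16.1 CPM to 13.2, 11 and 11 (-0.36 ± 0.079, edgeR FDR = 4.6e-04). Xrcc3, which pairs with Rad51c in another complex, rose from 5.89, 5.80 and 5.71 CPM to 7.79, 7.33 and 8.59 (0.45 ± 0.093, edgeR FDR = 3.2e-04). That call was lost with unstranded counts, which add reads of the opposite strand. Xrcc2 was not called untreated, at 0.098 ± 0.069. Rad54b, a motor protein of strand pairing, had 30.7, 30.7 and 31.6 CPM in WT and 51.3, 48.9 and 49 in Lkb1-/- (0.68 ± 0.055, edgeR FDR = 8.4e-10). Its exons share 2068 bases with Fsbp on the same strand, and reads not assigned to a single gene were left out of the counts. The related Rad54l fell slightly, by 0.15 ± 0.046 on the log2 scale (edgeR FDR = 0.0070), and Rad52 was at 0.30 ± 0.13 (edgeR FDR = 0.059).

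The deepest falls were in Exo1, of end trimming, and Atr, of the damage signal. Of the 5 genes of break sensing and end trimming, 1 was higher and 3 lower in untreated Lkb1-/- than in WT, and of the 4 kinases 2 were higher and 1 lower, where 30.1% of all genes were higher and 25.8% lower. Exo1, the long-range nuclease (GRCm38, chr1:175880581-175913489, plus strand), had 67.9, 65.3 and 65.8 CPM in untreated WT and 38.9, 38.7 and 36.3 in Lkb1-/- (-0.80 ± 0.058, edgeR FDR = 1.5e-10). Atr, the kinase that answers single-stranded DNA (GRCm38, chr9:95857597-95951781, plus strand), had 68.6, 71.7 and 70.9 CPM and 40.3, 41.4 and 39.4 (-0.80 ± 0.064, edgeR FDR = 6.7e-10). Every WT library was above every Lkb1-/- library for both genes. The median of chromosome 1, which carries Exo1, was -0.29, and scaled within it Exo1 was at -0.51 (edgeR FDR = 1.8e-07), while that of chromosome 9, which carries Atr, was -0.12. Under IL-1β the values were -0.76 ± 0.058 and -0.73 ± 0.064. Blm, the helicase that works with EXO1 and also undoes crossed strands, fell from 107, 115 and 114 CPM to 78.7, 77.3 and 81.8 (-0.50 ± 0.070, edgeR FDR = 3.6e-06). Mre11a and Rad50 fell by 0.24 and 0.28 on the log2 scale (edgeR FDR = 3.1e-04 and 0.0049), calls lost within their chromosomes, at -0.12 and -0.15, whereas Nbn, the remaining subunit of that complex, was at -0.046 and not called. Rbbp8, their cofactor, rose by 0.34 ± 0.050 (edgeR FDR = 6.5e-06). The other kinases behaved differently from Atr. Atm had 108, 113 and 112 CPM in WT and 113, 114 and 109 in Lkb1-/-, overlapping ranges, and was not called (0.0050 ± 0.085, edgeR FDR = 0.97). Chek1, which ATR activates, had 57.4, 54.5 and 54.6 and 62.2, 58.2 and 60.2 and was called by a narrow margin (0.12 ± 0.049, edgeR FDR = 0.049), a call lost in 7 of 13 other settings, among them without replicate 1 or 3 of Lkb1-/- or replicate 2 or 3 of WT, with values from 0.027 to 0.24. Chek2, which ATM activates, rose by 0.36 ± 0.094 (edgeR FDR = 0.0026), a call lost within chromosome 5, at 0.20.

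Of the 5 BRCA genes and partners, 2 were higher and 1 lower in untreated Lkb1-/- than in WT. These counts are near the shares of all genes, 30.1% higher and 25.8% lower. Brca1 (GRCm38, chr11:101488764-101551955, minus strand) had 91.3, 87.2 and 89.9 CPM in untreated WT and 110.0, 115 and 116 in Lkb1-/- (0.34 ± 0.065, edgeR FDR = 1.1e-04). Brca2 (GRCm38, chr5:150522630-150570329, plus strand) had 60.6, 60.6 and 60.4 and 76.1, 68 and 69.4 (0.23 ± 0.070, edgeR FDR = 0.0074). Its WT libraries lay within 1 CPM of each other, and the call was lost without replicate 1 of Lkb1-/-, the highest library, at 0.12, and without replicate 3 of WT, at 0.17. Palb2, with 22, 20.5 and 20.3 CPM in WT and 19, 15.5 and 15.3 in Lkb1-/-, was lower (-0.33 ± 0.12, edgeR FDR = 0.027), a call lost in 5 of 13 other settings, among them without replicate 1 of WT or replicate 2 or 3 of Lkb1-/-, with values from -0.51 to -0.15. Bard1 and the helicase Brip1 were not called, at 0.075 and -0.068. Slx4, the scaffold that gathers nucleases at joined strands, rose by 0.43 ± 0.061 (edgeR FDR = 3.8e-06), and its nuclease partners Mus81 and Eme1, like the helicase Wrn, were not called, at 0.025, 0.019 and -0.044.

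**Figure D2:**
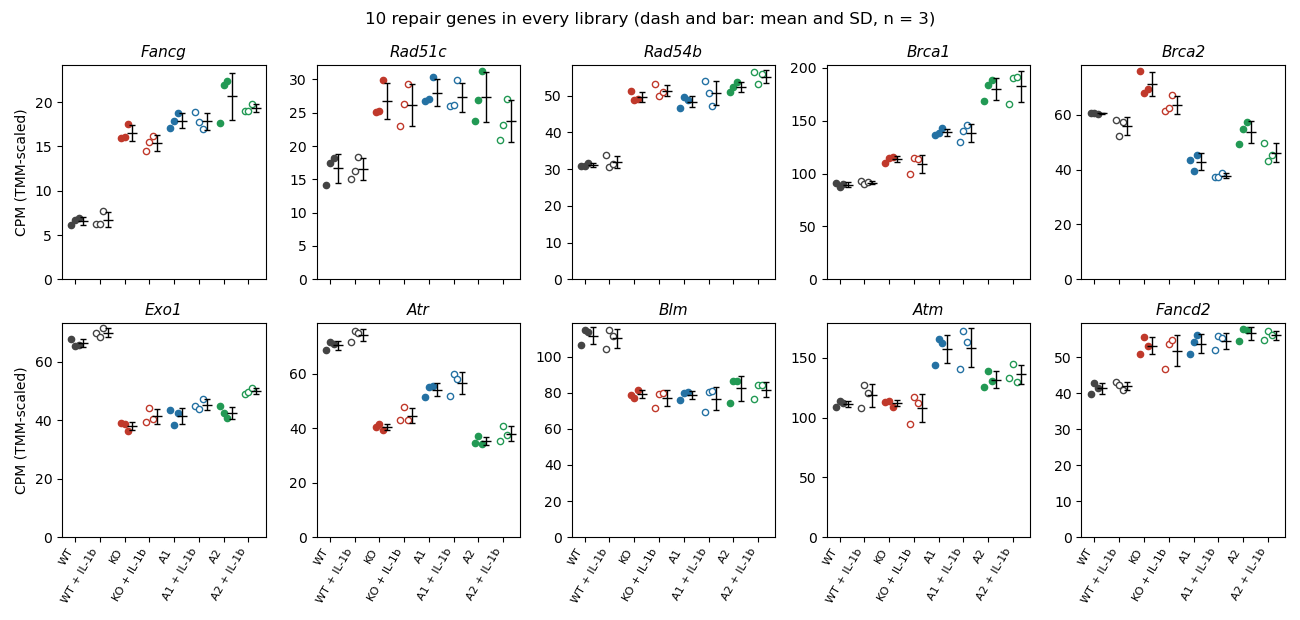
CPM of 10 repair genes (y axes, linear from 0) in each of the 24 libraries by group (x axis), with filled points for untreated and open points for IL-1β-treated cultures and a dash and bar for mean and SD of 3 libraries. Fancg, Rad51c and Rad54b are higher and Exo1, Atr and Blm lower in all 3 Lkb1-null lines than in WT, while Brca2 is lower in both clones than in Lkb1-/-.

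Genes of the wider pathway also went both ways. Of 43 further genes of recombination, crosslink repair and the replication checkpoint, 11 were higher and 14 lower in untreated Lkb1-/- than in WT, with a median of -0.019. Over all genes 30.1% were higher and 25.8% lower in this comparison, the background for each count of this kind. The largest rises were in Rmi2, a partner of Blm, at 1.10 ± 0.089, the damage mediator Mdc1 at 0.87 ± 0.11, and Ube2t, the ubiquitin-conjugating enzyme of the Fanconi core, at 0.56 ± 0.093. The largest falls were in the crosslink nuclease Ercc4 at -1.15 ± 0.072, in Faap24 at -1.08 ± 0.11 and in the resection nuclease Dna2 at -1.01 ± 0.13. Of 13 end-joining genes, 6 were higher and 3 lower, with Trp53bp1, which opposes resection, at 0.76 ± 0.076 and Lig3 at -0.80 ± 0.050. Of 18 S phase genes, 9 were higher, 1 was lower and 8 were not called in Lkb1-/-, with E2f1 at 1.02 ± 0.090 and Gins2 at 1.06 ± 0.082, and their sum was 3429 to 3487 CPM in untreated WT and 4006 to 4129.9 in Lkb1-/-. Of 14 G2/M genes 5 were higher and 3 lower. Of 10 p53 targets 7 were lower and none higher, their median log2 fold change being -0.81, with Cdkn1a at -1.14 ± 0.23. The part of cell cycle state in the repair genes' differences was not tested.

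The clones made by deleting Crtc2 in Lkb1-/- cells were each compared with Lkb1-/- MEFs. Since each is 1 clone, the deletion and the clone cannot be told apart. In untreated A1, 18 of 36 genes were called, 12 higher and 6 lower, where 35.3% of all genes were called, 18.9% higher and 16.4% lower. In untreated A2, 16 were called, 13 higher and 3 lower, where 32.3% of all genes were called, 17.1% higher and 15.1% lower. The A2 count fell to 9 when genes with low counts were kept in the test. Under IL-1β the counts were 17 in A1, where 36.7% of all genes were called, and 17 in A2, where 32.8% were. Since both clones are compared with the same Lkb1-/- libraries, their values are given side by side. Higher in both clones, with and without IL-1β, were 9 genes: Brca1, Brip1, Rad51d, Xrcc3, Rad54l, Rad50, Atm, Fanci and Eme1. Over all genes tested, 6.77% were called higher in these 4 comparisons, which share the Lkb1-/- libraries, and 5 of the 9 repair genes lie on chromosome 11. Brca2 was the only gene lower in both untreated clones, where 7.37% of all genes were, and under IL-1β Brca2 and Fancl were, where 8.22% of all genes were.

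Brca2 and Brca1 parted in the clones, although in A1 Brca1 stood no higher than its chromosome. The median of chromosome 11, which carries Brca1, was 0.29 in A1 and 0.34 in A2. Scaled within that chromosome, the Brca1 call was lost in A1 and kept in A2. Brca2 had 43.7, 39.5 and 45.4 CPM in untreated A1 and 49.4, 54.7 and 57.4 in A2, all below the 76.1, 68 and 69.4 of Lkb1-/- and below the 60.6, 60.6 and 60.4 of WT. The log2 fold changes from Lkb1-/- were -0.73 ± 0.071 (edgeR FDR = 1.1e-07) and -0.40 ± 0.070 (edgeR FDR = 1.6e-04). Brca1 had 136, 138 and 143 CPM in A1 and 168, 183 and 189 in A2, all above Lkb1-/-, with 0.29 ± 0.065 (edgeR FDR = 0.0012) and 0.67 ± 0.065 (edgeR FDR = 1.4e-07). Rad51c, the other gene with both an E2F and a CREB word in its window, overlapped Lkb1-/-, at 26.7, 27 and 30.3 CPM in A1 and 23.7, 26.9 and 31.3 in A2, and was not called in either clone (0.065 ± 0.12 and 0.028 ± 0.12). Fancg, Rad54b, Rad51b, Fancf and Fancd2, which were higher in Lkb1-/- than in WT, were not called lower in either clone, and Fancg was called higher in A2 (0.32 ± 0.094, edgeR FDR = 0.013), a call lost without replicate 2 of Lkb1-/- in a range of 0.28 to 0.47 over 13 other settings.

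Whole chromosomes shifted between the clones and Lkb1-/- as well, and the repair genes lie on them unevenly. Chromosome 11 carries 7 of the 36, chromosomes 4, 7 and 9 carry 4 each, and chromosomes 5 and 12 carry 3 each. In untreated A1 minus Lkb1-/- the median log2 fold change was 0.29 over 1294 tested genes of chromosome 11, of which 81.7% were above 0, 0.32 over 983 genes of chromosome 9, -0.37 over 918 genes of chromosome 8 and -0.38 over 856 genes of chromosome 17, while it was 0.022 over 1222 genes of chromosome 5. In A2 the medians were 0.34 on chromosome 11, -0.31 on chromosome 8 and 0.026 on chromosome 9.

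**Figure D3:**
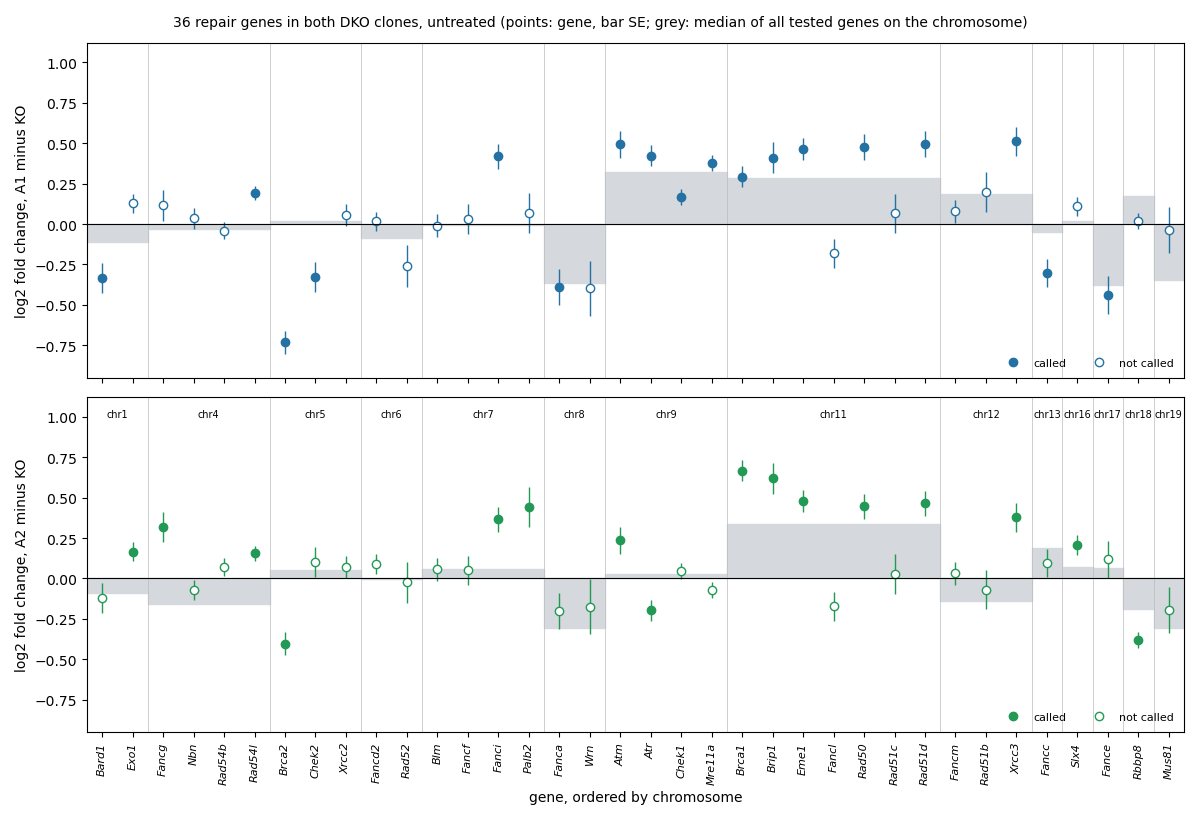
Log2 fold change of the 36 repair genes in untreated A1 (upper panel) and A2 (lower panel) minus Lkb1-/- MEFs, with genes ordered by chromosome on the x axis, filled points where the FDR was under 0.05, bars for the SE, and grey blocks for the median of all tested genes on that chromosome. The 4 genes of chromosome 9 lie above 0 in A1, at 0.17 to 0.49, where its block stands at 0.32, and on both sides of 0 in A2, where it stands at 0.026.

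Of the 12 genes higher in A1 than in Lkb1-/-, 9 lie on chromosomes 9 and 11. Of all tested genes on these chromosomes, 81% and 81.7% were above 0 in A1, called or not. In A2 84.4% of those on chromosome 11 were above 0. On chromosome 11, Rad50 went from 88.6, 87.8 and 86.4 CPM in Lkb1-/- to 120.4, 121 and 124 in A1 and 105, 124 and 129 in A2 (0.48 ± 0.079 and 0.45 ± 0.079, edgeR FDR = 7.5e-05 and 1.9e-04). Rad51d, on the same chromosome, had 16.1, 17.2 and 16.4 CPM in A1 and 14.8, 16.6 and 17.3 in A2 (0.50 ± 0.079 and 0.46 ± 0.079, edgeR FDR = 4.5e-05 and 1.1e-04). Brip1, the helicase that binds BRCA1, went from 55, 58.8 and 59.6 to 71.3, 73.1 and 86.1 and 79.6, 90.4 and 96.4 CPM (0.41 ± 0.095 and 0.62 ± 0.095, edgeR FDR = 0.0019 and 4.2e-05). Eme1, the partner of MUS81, went from 22.4, 19.9 and 21 to 29.7, 28.6 and 29 and 31.4, 28.5 and 28.3 CPM (0.46 ± 0.068 and 0.48 ± 0.068, edgeR FDR = 1.7e-05 and 1.5e-05). With Brca1, 5 of the 7 genes of chromosome 11 were higher in both clones, and the 2 others, Rad51c and Fancl, were not called, Fancl at -0.18 and -0.17. All 4 genes of chromosome 9, Atm, Atr, Chek1 and Mre11a, were higher in A1, although Chek1, with 68.3, 66.6 and 67.9 CPM in A1 and 64.2, 60.8 and 61.7 in A2, was not called in A1 without replicate 2 of Lkb1-/- (-0.13 to 0.21 over 13 other settings). Atm had 113, 114 and 109 CPM in Lkb1-/- and 144, 166 and 163 in A1 (0.49 ± 0.085, edgeR FDR = 1.1e-04), and in A2 125, 139 and 131 (0.24 ± 0.085, edgeR FDR = 0.038), where the call was lost in 5 of 13 other settings, among them without replicate 2 or 3 of Lkb1-/- or replicate 2 of A2 (0.22 to 0.28). Atr had 40.3, 41.4 and 39.4 CPM in Lkb1-/-, 51.5, 55.3 and 55.6 in A1 and 34.4, 37 and 34.3 in A2, and was the only gene called in opposite directions in the clones (0.42 ± 0.064 and -0.20 ± 0.064, edgeR FDR = 2.5e-05 and 0.022), the fall in A2 being lost in 6 of 13 other settings, among them without replicate 1 or 2 of Lkb1-/- or replicate 1 or 3 of A2 (-0.22 to -0.15).

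The 6 falls in A1 included genes of chromosomes 8 and 17. Fance, of the Fanconi core and on chromosome 17, had 11.3, 10.5 and 9.64 CPM in Lkb1-/- and 8.95, 6.84 and 7.38 in A1 (-0.44 ± 0.12, edgeR FDR = 0.0055). Fanca, on chromosome 8, had 73.8, 68.1 and 67.6 and 58, 51 and 51 (-0.39 ± 0.11, edgeR FDR = 0.0089). Both calls were lost without replicate 1 of Lkb1-/-, the highest library for each, at -0.36 and -0.32. Bard1, on chromosome 1 with a median of -0.11, had 63.6, 67.6 and 72.2 and 50.6, 52.5 and 58.2 CPM (-0.33 ± 0.093, edgeR FDR = 0.0073). Chek2, on chromosome 5 as Brca2 is, was at -0.33 ± 0.094 in A1 (edgeR FDR = 0.0095) and was lost without replicate 2 of A1 (-0.38 to -0.27 over 13 other settings). In A2, Rbbp8 was lower than in Lkb1-/-, at 66.9, 68.3 and 68.5 against 88, 87.1 and 90.2 CPM (-0.38 ± 0.050, edgeR FDR = 6.1e-06), on a chromosome with a median of -0.19. Xrcc3, on chromosome 12 with medians of 0.18 in A1 and -0.14 in A2, had 10.6, 11.6 and 11.6 CPM in A1 and 9.67, 10.8 and 10.3 in A2 against 7.79, 7.33 and 8.59 in Lkb1-/- (0.51 ± 0.091 and 0.38 ± 0.091, edgeR FDR = 1.5e-04 and 0.0029).

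When each chromosome was scaled to its own median, an alternative chosen after the data were seen, 8 genes were called in untreated A1 in place of 18, where 23.8% of all genes were called, and 12 in A2 in place of 16, where 23.2% were. In A1, 13 of the 18 calls were lost, among them all those on chromosomes 8, 9, 11 and 17, and 5 were kept: Brca2 and Chek2 lower, and Xrcc3, Rad54l and Fanci higher. Brca1 stood at 0.0072 in A1 (edgeR FDR = 0.96) and 0.31 in A2 (edgeR FDR = 0.0014) relative to its chromosome. Brca2 stood at -0.71 (edgeR FDR = 2.1e-07) and -0.48 (edgeR FDR = 3.7e-05), and Fancl, not called before, at -0.47 and -0.53 (edgeR FDR = 6.1e-04 and 1.7e-04). Between Lkb1-/- and WT the same scaling gave 18 calls, 15 of them among the 22, where 53.8% of all genes were called. There Fancg stood at 1.24, Rad51c at 0.81, Atr at -0.68 and Exo1 at -0.51, each still called, while the calls of Brca2, Chek2, Fancd2, Fancl, Mre11a, Palb2 and Rad50 were lost.

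The clones differed from each other directly. In untreated A2 minus A1, 10 of 36 genes were called in the fit without replicate numbers, where 32.5% of all genes were. Fance, Chek2, Fancc, Brca1, Palb2 and Brca2 were higher in A2, by 0.56, 0.43, 0.40, 0.37, 0.37 and 0.33 on the log2 scale, and Atr, Mre11a, Rbbp8 and Atm were lower, with values of -0.62, -0.45, -0.40 and -0.26. With chromosomes scaled to themselves 9 were called, where 26.4% of all genes were, and 5 of these were among the 10: Brca1, Brca2 and Chek2 higher and Atr and Mre11a lower.

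Against WT, 26 genes were called in untreated A1, 17 higher and 9 lower, where 55.4% of all genes were called, and 22 in A2, 16 higher and 6 lower, where 60.6% were. In the 3 Lkb1-null lines alike, 10 genes were higher than in the same WT libraries, namely Brca1, Rad51b, Rad51c, Xrcc3, Rad54b, Chek1, Fancf, Fancg, Fancd2 and Slx4, and 4 were lower, namely Exo1, Atr, Fancl and Blm. Of all genes tested, 20.9% were higher and 16.1% lower in these 3 comparisons. Exo1 and Atr were at 41.5 ± 2.68 and 54.1 ± 2.29 CPM (SD, n = 3) in A1 and 42.5 ± 2.06 and 35.2 ± 1.5 in A2, against 66.3 ± 1.37 and 70.4 ± 1.64 in WT. Other recombination and crosslink genes went both ways in the clones too: of the 43, 16 were higher and 7 lower than in Lkb1-/- in A1, and 15 were higher and 7 lower in A2, where 18.9% of all genes were higher and 16.4% lower in A1 and 17.1% and 15.1% in A2. Of 18 S phase genes 9 were lower and 2 higher in A1 than in Lkb1-/-, with a median of -0.24, and 7 of 14 G2/M genes were lower in A2 with none higher. Summed S phase CPM was 3246 to 3529 in untreated A1 and 3469 to 4053.5 in A2, against 4006 to 4129.9 in Lkb1-/-. For the G2/M genes the sums were 4088 to 4669 in A1 and 3514 to 4201 in A2, against 4044 to 4606 in Lkb1-/-.

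Few of the repair genes were called for a response to IL-1β in the fit without replicate numbers. A fit with them called more and is given among the processing alternatives. None of the 36 was called in WT, where 2.26% of all genes were called, in Lkb1-/-, where 4.74% were, or in A1, where 1.99% were (edgeR, FDR under 0.05), and 0, 4 and 4 had an unadjusted p under 0.05. DESeq2 called 0, 0 and 0. In A2, where 5.68% of all genes were called, 2 were, and between 0 and 5 were when single libraries were left out. Exo1 went from 44.7, 42.3 and 40.6 CPM untreated to 49, 49.8 and 51 with IL-1β (0.23 ± 0.058, edgeR FDR = 0.018), and Fancf from 16.8, 19.7 and 21 to 12.8, 14.6 and 16.9 (-0.38 ± 0.091, edgeR FDR = 0.014). The Exo1 groups did not overlap, while those of Fancf did. Without replicate 3 of untreated A2 neither gene was called, Exo1 was also lost without replicate 2 of untreated A2 and Fancf without replicate 1 of treated A2, with values of 0.20 to 0.29 for Exo1 and -0.45 to -0.28 for Fancf over 13 other settings. In the other lines Exo1 was at 0.075, 0.12 and 0.13, and Fancf at -0.053, -0.18 and -0.21, in WT, Lkb1-/- and A1. Over the 36 genes the responses ran from -0.18 to 0.26 in WT and from -0.38 to 0.36 in A2 on the log2 scale. No gene's response differed between Lkb1-/- and WT, A1 and Lkb1-/-, or A2 and Lkb1-/- in edgeR's interaction test, where 0.245%, 0.0285% and 0% of all genes were called, with 1, 0 and 0 genes at an unadjusted p under 0.05 and 0, 0 and 0 called by DESeq2. Rad52 had the highest response of the 36 in each line and was not called in any in the fit without replicate numbers, at 0.26, 0.33, 0.30 and 0.36 in WT, Lkb1-/-, A1 and A2 (edgeR FDR = 0.48, 0.19, 0.40 and 0.12). Its CPM was 13.7, 12.5 and 12.3 in untreated and 17.4, 16.2 and 14.9 in IL-1β-treated Lkb1-/- cells, and it was chosen for mention after its values were seen.

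**Figure D4:**
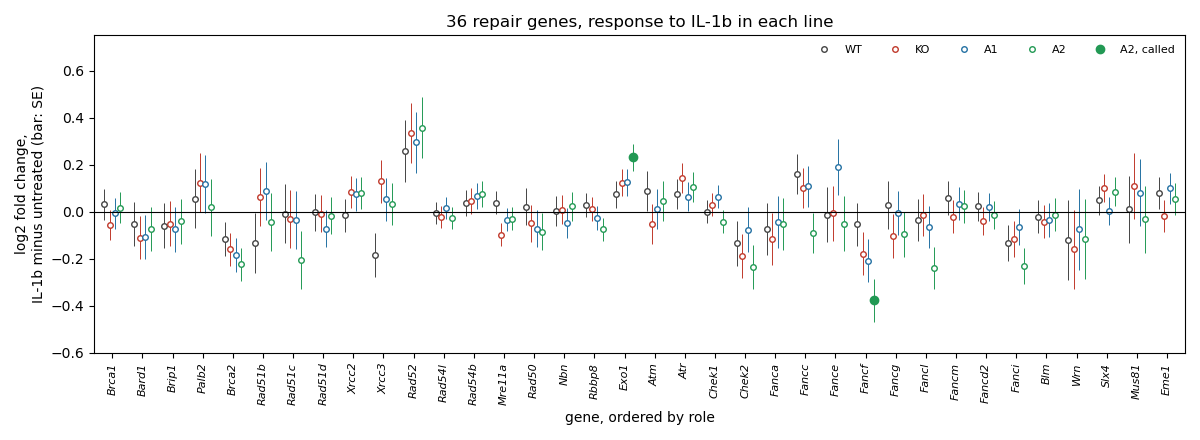
Log2 fold change with IL-1β against no treatment (y axis) for the 36 repair genes ordered by role (x axis) in WT, Lkb1-/- (KO), A1 and A2 MEFs, with bars for the SE and filled points where the FDR was under 0.05. Exo1 at 0.23 and Fancf at -0.38 in A2 are the filled points, and Rad52 stands highest in each line.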

How the data were processed

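Poly(A)-selected or rRNA-depleted RNA of 24 cultures was sequenced as read pairs (the labels and the study's methods name different library kits). Per the submitters' processing notes, the authors trimmed reads with Trim Galore 0.6.0 and aligned them with STAR 2.7.8a to mm10, and the deposited files hold STAR's raw counts per gene for 3 strand settings. The second-strand counts were used here, since 95.5% to 96.0% of strand-assigned reads fell there. Lines that name no gene, 26.7% to 34.4% of reads, were left out. Depth was 38842901 to 48594394 counts. Symbols, positions and exon lengths came from GENCODE on GRCm38, and promoter windows from RefSeq.

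Genes passing filterByExpr (17522) were scaled by TMM and fitted with edgeR 4.0.16 (quasi-likelihood test, Benjamini-Hochberg FDR under 0.05) over all 8 groups, with 16 contrasts. CPM values are TMM-scaled. The scripts were tested on simulated data. Alternatives were unstranded counts, other scalings, no filter, DESeq2 1.42.0, a replicate block, single libraries left out and scaling within chromosomes. Values in every library are given for the genes called with the largest changes (up to 5 each way against WT, 4 against Lkb1-/-, 3 for IL-1β) and for Brca1, Brca2, Fancd2, Chek1 and Atm. 1 gene of the wider pathway list is not reported here. The genes and lists were chosen with earlier results of these data known.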

Additional observations from a re-analysis of the deposited data

Results flagged for a closer look

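The A1 and A2 clones, both labelled as LKB1/CRTC2 knockout, differed from each other in 10 of the 36 repair genes without IL-1β (edgeR, FDR under 0.05). This was a direct test of A2 minus A1 in the fit without replicate numbers. Atr was lower in A2 by a log2 value of -0.62, Mre11a by -0.45, Rbbp8 by -0.40 and Atm by -0.26. Brca2 was higher in A2 at 0.33, Palb2 at 0.37, Brca1 at 0.37, Fancc at 0.40, Chek2 at 0.43 and Fance at 0.56. Palb2 and Atm are the calls that depended on single libraries. Palb2 was not called without replicate 1 of A2 or replicate 2 or 3 of A1, with values from 0.27 to 0.48 over 13 other settings, and Atm was not called without replicate 1 or 3 of A2 or replicate 2 or 3 of A1, with values from -0.32 to 0.03. Between the clones the median of all tested genes was -0.29 on chromosome 9, which carries Atr, Mre11a and Atm, and 0.46 on chromosome 17, which carries Fance. No test of outlying samples was run within groups of 3 libraries.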

How the results depend on the processing

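Of 16 counts of called genes, 8 stayed within 1.5 times under every alternative. Scaling within chromosomes, chosen after the data were seen, gave 8 calls for A1 against Lkb1-/- untreated and 8 with IL-1β. Without the filter on low counts there were 9 calls for A2 against Lkb1-/- untreated and 0 for IL-1β in A2. Leaving out single libraries gave 0 to 5 calls for IL-1β in A2, the count of 0 without replicate 3 of untreated A2 and that of 5 without replicate 1 of untreated A2. Replicate numbers are shared between groups, and 69 of 84 same-numbered pairs correlated above 0.1 (0.0355 to 0.589), with 23 of 24 libraries closest to their own number, a hint from the data and not the design. The replicate block gave 18 calls for A2 minus A1, and 1, 4, 1 and 8 for IL-1β in WT, Lkb1-/-, A1 and A2, Rad52 among them in each line.

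Some directions turned. Atm in Lkb1-/- minus WT was -0.067 with unstranded counts, -0.00074 with DESeq2 size factors, -0.0041 without the filter and -0.00072 in DESeq2, and -0.066 to 0.018 with single libraries left out. Fancd2 in A1 minus Lkb1-/- was -0.016 to 0.054 with single libraries left out. Scaled within chromosomes, Fanca was 0.0080 and Chek1 -0.13 in A1 minus Lkb1-/-, both called before, and Atm in A2 minus A1 was 0.025. Fancl in Lkb1-/- minus WT was 0.053 with unstranded counts. The cause was not tested. Genes with few counts, such as Rad51b and Xrcc3, limit the precision, and 3 libraries a group cannot reach a p under 0.05 in an exact permutation test of 1 gene (smallest p 0.1).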
